A study of Mus musculus with 173 samples.

Results

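The cerebellum and the hippocampus of the same 8 wild-type mice were compared by RNA sequencing, giving 16 of the 173 libraries of the series, 8 per tissue. The members are the libraries labelled wild type and either cerebellum or hippocampus, and the animal code in each library's name shows that every mouse gave 1 library of each tissue. The mice were C57BL/6, aged 6 months, 4 females (3, 5, 7 and 9 by their codes) and 4 males (1, 3, 5 and 7), with no expanded Htt allele. They served as controls for a knock-in model of Huntington disease and, per the labels, were housed with heterozygous mice of the Q20 line. All female codes begin Q20B0005 and all male codes Q20B0001, so sex cannot be told apart from whatever these prefixes mark. The labels do not say what that is. Each tissue was a whole dissected piece, frozen and extracted in bulk, from which polyadenylated RNA was sequenced. In such samples, fewer cells of a type and less RNA per cell cannot be told apart.

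The cerebellum is built mainly of granule cells, small glutamatergic neurons born from the rhombic lip, whose parallel fibres excite Purkinje cells, the GABAergic output neurons of its cortex. Unipolar brush cells, molecular layer and Golgi interneurons and Bergmann glia complete its cortex, and the deep nuclei lie beneath it. The hippocampus is part of the telencephalon. Its dentate granule cells and CA pyramidal cells are glutamatergic neurons known for CaMKII-dependent, NMDA receptor-dependent synaptic plasticity, and its dentate gyrus keeps neural stem cells in the adult mouse. Both tissues share astrocytes, oligodendrocytes, microglia and vessels.

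Library totals were 27.98 to 32.4 M estimated counts in the cerebellum and 31.6 to 33.9 M in the hippocampus. Genes with a mean of at least 1 FPKM numbered 13215 in the cerebellum and 13163 in the hippocampus. The first principal component held 88.2% of the variance and separated the tissues, and the second, with 2.70%, separated the sexes. Among 10939 genes with at least 5 CPM in both tissues, the median coefficient of variation over mice was 5.76% in the cerebellum and 5.61% in the hippocampus. The cerebellum library of male 1 stood apart most often, at 3.59% of these genes by Dixon's test, followed by the hippocampus library of female 7 at 2.72%. Every other library stood apart at 1.01% of genes or fewer. Library names took 2 forms: 4 cerebellum libraries (female 9 and males 1, 3 and 7) carried an added D code and the other 12 did not, and no source says what it stands for.

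A set of 4 genes served to check the labels. Gabra6, the GABA-A receptor subunit of cerebellar granule cells, had 588 to 672 CPM (median 633) in the cerebellum and 0 to 0.703 CPM (median 0.265) in the hippocampus, a log2 fold change of 11.08 ± 0.18 for cerebellum over hippocampus. Cbln1, the synapse organiser that granule cells secrete, had 596 to 769 CPM (median 631) in the cerebellum and 2.73 to 4.92 CPM (median 3.61) in the hippocampus (7.46 ± 0.09). Camk2a, the CaMKII subunit of forebrain excitatory neurons, had 79.2 to 97.5 CPM (median 88.6) in the cerebellum and 4269 to 5122 CPM (median 4810.0) in the hippocampus (-5.76 ± 0.04). These 3 went with the labels in every mouse. Prox1, the homeobox gene of dentate granule cells, is also known from the developing cerebellum. It was higher in the hippocampus of all 8 mice but by less than 2-fold, with 68.9 to 85.8 CPM (median 77.2) in the cerebellum and 115 to 170.2 CPM (median 145) in the hippocampus (-0.89 ± 0.06). CPM is the count scaled to library size with TMM factors, and ± gives the standard error of a log2 fold change. List sums, Xist and genes too low to be tested are given in CPM of the library total, without those factors. Xist, transcribed from the inactive X chromosome, was at 1161 CPM or more in every female library and at 1.89 CPM or less in every male library.

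**Figure D1:**
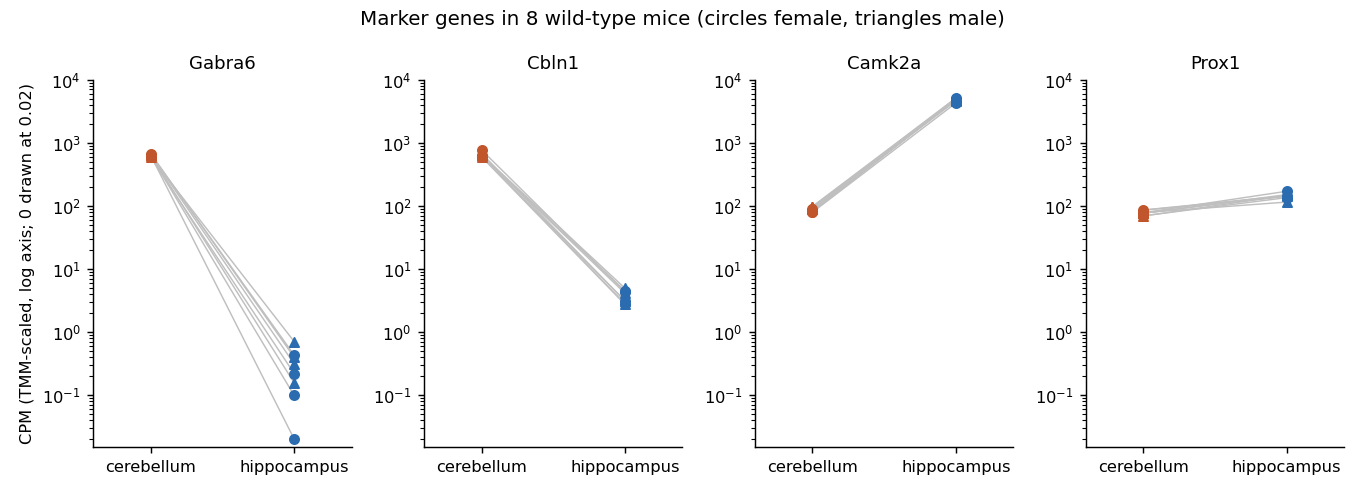
Marker genes in 8 wild-type mice. Each panel gives the TMM-scaled CPM of 1 gene on a log axis, with the cerebellum on the left and the hippocampus on the right, 1 point per mouse (circles female, triangles male) and a line joining the 2 tissues of a mouse. Gabra6 and Cbln1 are higher in the cerebellum and Camk2a in the hippocampus of all 8 mice, while the Prox1 values of the tissues lie closest together.

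Most of the transcriptome differed between the tissues, and the largest differences were close to presence against absence. In edgeR's quasi-likelihood test with the mouse as a block, 13736 of 16451 tested genes (83.5%) passed an adjusted p of 0.05, of which 6990 were higher in the cerebellum and 6746 in the hippocampus. Differences of at least 2-fold were found for 1807 genes higher in the cerebellum (11% of those tested) and 2346 higher in the hippocampus (14.3%). A further 9583 genes passed with differences under 2-fold, and the median size of the log2 fold change over all tested genes was 0.47. For 4119 genes (25.0%) the 95% interval of the difference lay within 1.25-fold either way. Of the genes at least 2-fold higher in 1 tissue, the lowest library of the higher tissue exceeded the highest of the other for 1698 of 1807 in the cerebellum and 2234 of 2346 in the hippocampus. These genes were chosen for their difference in the same libraries, so the counts are no separate support for it. The share over all tested genes is not given here. Log2 differences beyond 5 were reached by 97 genes higher in the cerebellum and 197 higher in the hippocampus. The median log2 fold change over all tested genes was 0.02. The excess on the hippocampus side did not hold on the FPKM scale: limma on log2(FPKM + 1) gave 1207 genes at least 2-fold higher in the cerebellum and 1133 in the hippocampus, and on log2(FPKM + 0.1) it gave 1887 and 1756. In the 4 mice whose cerebellum and hippocampus libraries had the same form of name, 1844 and 2351 genes were at least 2-fold higher in the cerebellum and in the hippocampus. These p-values are adjusted by the Benjamini-Hochberg method over all tested genes, as are all adjusted p that follow.

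**Figure D2:**
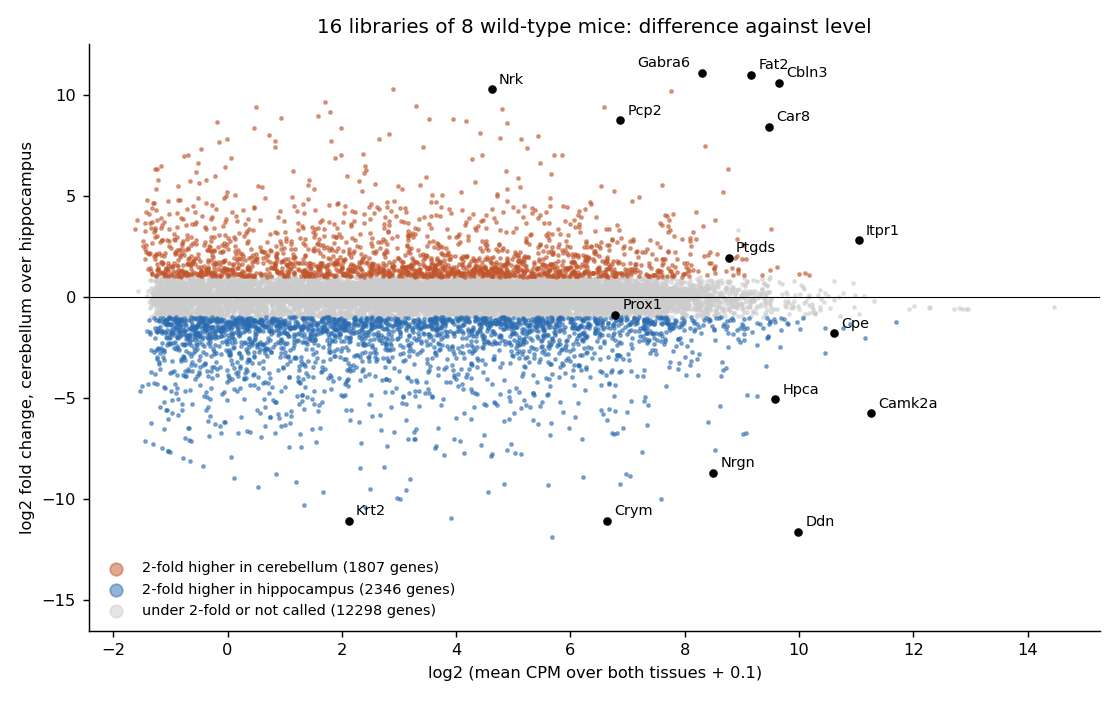
Log2 fold change of cerebellum over hippocampus against mean level, in log2 of the mean CPM over both tissues plus 0.1, for 16451 genes in 8 wild-type mice. Coloured points are the 1807 and 2346 genes at least 2-fold higher in the cerebellum and in the hippocampus, grey points the rest, and the labelled black points include Gabra6 at a log2 fold change of 11.08 and Ddn at -11.60.

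The 10 genes with the largest folds in favour of the cerebellum included markers of granule cells and Purkinje cells beside genes of other kinds. Gabra6 led the order, followed by Fat2, a giant cadherin of granule cells, and Cbln3, a secreted C1q-family protein of granule cells that is released together with Cbln1. Fat2 had 921 to 1261 CPM (median 1143) in the cerebellum and 0.098 to 1.31 CPM (median 0.516) in the hippocampus (log2 fold change 10.98 ± 0.20, adjusted p = 1.8e-10). Cbln3 had 1413 to 1766 CPM (median 1609) in the cerebellum and 0.457 to 1.63 CPM (median 0.886) in the hippocampus (log2 fold change 10.59 ± 0.16, adjusted p = 2.0e-11). Neither gene's ranges overlapped between the tissues. Others of the 10 were Nrk, a Nik-related protein kinase (log2 fold change 10.26 ± 0.15), Cnpy1, a regulator of FGF signalling at the zebrafish midbrain-hindbrain boundary (10.16 ± 0.19), Ppp1r17, the Purkinje cell G-substrate that inhibits protein phosphatases when phosphorylated (9.39 ± 0.06), and Crtam, best known as an adhesion receptor of activated T cells (9.29 ± 0.12). Crtam had 49.9 to 63.5 CPM (median 53) in the cerebellum and 0.0311 to 0.224 CPM (median 0.0659) in the hippocampus. Iltifb, a near-identical copy of Il22, had 16.8 to 23.8 CPM (median 19) in the cerebellum and 0 to 0.0639 CPM (median 0.0163) in the hippocampus, and how reads were divided between the copies is not given in the sources used here. Sycp1, a component of the synaptonemal complex of meiotic cells, had 13.5 to 15.9 CPM (median 14.7) in the cerebellum but 2 counts in all hippocampus libraries together, a ratio of 2019 with a 95% counting interval of 559 to 16670. Skor2, a transcriptional corepressor of Purkinje cells, had 5.19 to 7.39 CPM (median 6.62) in the cerebellum and 1 count in the hippocampus (ratio 1738, 312 to 68628). Both Sycp1 counts lay in female 3, and the Skor2 count in male 1. These intervals cover counting error alone.

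The largest folds in favour of the hippocampus included transcription factor genes of the telencephalon and genes of forebrain excitatory neurons, beside genes of other kinds. Ddn, the postsynaptic protein dendrin, had 0.211 to 1.41 CPM (median 0.491) in the cerebellum and 1793 to 2195 CPM (median 2030.0) in the hippocampus (log2 fold change -11.60 ± 0.24, adjusted p = 5.7e-10). Crym, a thyroid hormone-binding protein, had 0 to 0.179 CPM (median 0.0902) in the cerebellum and 182 to 218 CPM (median 197) in the hippocampus (log2 fold change -11.05 ± 0.11, adjusted p = 2.4e-17). For both genes every hippocampus library lay above every cerebellum library. Cpne7, a calcium-dependent membrane-binding protein (log2 fold change -9.99 ± 0.14), and Kcnv1, a silent potassium channel subunit (-9.64 ± 0.09), were also among the 10. Krt2, an epidermal keratin, had no count in any cerebellum library and 7.04 to 9.44 CPM (median 8.57) in the hippocampus, which is at least 661-fold higher in the hippocampus against a floor of 3 counts over the 8 cerebellum libraries. The transcription factor genes Fezf2, Nr2e1 and Emx2 had 3 counts each over the 8 cerebellum libraries, beside hippocampus medians of 29.9, 15.8 and 14.9 CPM. Their ratios of hippocampus to cerebellum were 2330 (95% counting interval 797 to 11296), 1246 (426 to 6042) and 1195 (409 to 5797). Of the 3 Nr2e1 counts, 2 lay in female 3. All 10 genes with the largest difference in favour of the cerebellum had their highest mean FPKM of the series' 11 wild-type tissues in the cerebellum. Of the 10 hippocampus genes, 8 had theirs in the hippocampus. Both groups were picked for being high in these tissues, which favours that outcome. Nr2e1 was highest in the tissue labelled corpus callosum.

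The stretches upstream of 4 of these genes are shown because the genes stand at the 2 ends of the comparison: Gabra6 and Cbln3 for the granule cell, Fezf2 and Emx2 for the telencephalon. Each is the 250 bases before the gene's start in RefSeq, written 5′ to 3′ on the gene's strand with CG dinucleotides in capitals, on build GRCm38.p6. They lie at chr11:42321073-42321322 (minus strand) for Gabra6, chr14:55884257-55884506 (minus) for Cbln3, chr14:12345866-12346115 (minus) for Fezf2 and chr19:59458440-59458689 (plus) for Emx2.
Gabra6: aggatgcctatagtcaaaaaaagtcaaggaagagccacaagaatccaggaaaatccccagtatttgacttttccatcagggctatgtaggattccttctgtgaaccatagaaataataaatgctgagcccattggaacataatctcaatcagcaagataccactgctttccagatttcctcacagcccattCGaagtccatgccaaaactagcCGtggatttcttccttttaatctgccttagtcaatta
Cbln3: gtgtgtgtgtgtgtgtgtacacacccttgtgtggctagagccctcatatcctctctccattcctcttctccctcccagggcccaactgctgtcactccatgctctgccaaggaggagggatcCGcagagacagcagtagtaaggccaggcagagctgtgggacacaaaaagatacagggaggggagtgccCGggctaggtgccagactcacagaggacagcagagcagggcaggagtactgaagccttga
Fezf2: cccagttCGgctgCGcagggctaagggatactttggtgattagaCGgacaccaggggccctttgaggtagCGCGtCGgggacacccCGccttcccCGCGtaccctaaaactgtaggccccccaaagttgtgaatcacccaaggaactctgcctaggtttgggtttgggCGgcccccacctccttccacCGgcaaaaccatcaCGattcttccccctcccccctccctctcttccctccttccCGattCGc
Emx2: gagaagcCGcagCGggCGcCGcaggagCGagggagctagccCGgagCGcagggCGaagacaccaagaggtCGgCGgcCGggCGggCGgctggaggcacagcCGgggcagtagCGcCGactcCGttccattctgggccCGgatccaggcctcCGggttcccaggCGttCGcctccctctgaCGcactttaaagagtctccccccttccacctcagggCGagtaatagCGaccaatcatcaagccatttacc
Gabra6 and Cbln3 each held 2 CG dinucleotides, while Fezf2 held 14 and Emx2 24. A stretch was listed for 12153 of the 16451 tested genes, with a median of 15 CG dinucleotides. A count of 2 or fewer was found in 11.5% of 1256 stretches of genes at least 2-fold higher in the cerebellum, in 11.5% of 1687 of genes at least 2-fold higher in the hippocampus, and in 6.68% of all tested genes. At least 14 were found in 42.4%, 43.9% and 55.4% of the 3 sets. So the contrast between these 4 stretches is not one between the 2 gene sets, whose medians were both 11. Among the other listed genes with the largest folds, Fat2 (3), Cnpy1 (4) and Iltifb (3) in the cerebellum and Krt2 (4) in the hippocampus held few, while Sycp1 (17), Nrk (24) and Nr2e1 (15) held more.

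By abundance on the length-scaled FPKM values, a different set of genes stood out. Among called genes at least 2-fold higher in the cerebellum, the largest FPKM difference was in Ptgds, the prostaglandin D synthase of meninges, choroid plexus and oligodendrocytes, with 878 ± 162 FPKM in the cerebellum and 207 ± 40.6 FPKM in the hippocampus (SD, n = 8 each). Ckb, brain creatine kinase, had 990.3 ± 44.6 FPKM in the cerebellum and 414 ± 30.5 FPKM in the hippocampus, and Aldoc, the aldolase of astrocytes and of zebrin-positive Purkinje cells, had 900.5 ± 48 FPKM in the cerebellum and 374 ± 25.9 FPKM in the hippocampus. The Purkinje cell gene Pcp2 had 468 ± 33.4 FPKM in the cerebellum and 0.5 ± 0.227 FPKM in the hippocampus, and Pcp4, a calmodulin-binding protein, 561 ± 22.6 FPKM in the cerebellum and 109 ± 8.35 FPKM in the hippocampus. Pvalb, Itpr1, Car8, Cbln3 and Cbln1 completed the 10. Among called genes at least 2-fold higher in the hippocampus, Camk2a came first, followed by Hpca, the calcium sensor hippocalcin, with 30.7 ± 2.22 FPKM in the cerebellum and 923 ± 49.9 FPKM in the hippocampus. Cpe, which processes prohormones, had 355 ± 17.1 FPKM in the cerebellum and 1113 ± 38.8 FPKM in the hippocampus, and Tmsb4x, an actin-binding peptide, 256 ± 9.88 FPKM in the cerebellum and 972 ± 47.8 FPKM in the hippocampus. Ncdn, a neuronal protein that restrains CaMKII, had 107 ± 5.73 FPKM in the cerebellum and 677 ± 49.4 FPKM in the hippocampus. Cst3, Ddn, Nrgn, Ppp3ca and Chn1 completed the list. Several of these abundant genes differed by moderate folds: the log2 fold changes were 1.93 ± 0.10 for Ptgds, 1.12 ± 0.04 for Ckb, 1.10 ± 0.03 for Aldoc, -1.79 ± 0.03 for Cpe and -1.54 ± 0.03 for Ppp3ca, a catalytic subunit of calcineurin.

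Markers of the cerebellar neurons were higher in the cerebellum almost without exception. All 19 granule and unipolar brush cell markers were at least 2-fold higher there, with a median log2 fold change of 5.04, beside 11% of all tested genes. Their summed level was 7985 to 8644 CPM in the cerebellum and 417 to 493 CPM in the hippocampus. Barhl2 and Barhl1, homeobox genes of the granule lineage, had 33.3 to 38.3 CPM (median 36.3) and 11.3 to 13.7 CPM (median 12.2) in the cerebellum against 0 to 0.296 CPM (median 0.0476) and 0 to 0.125 CPM (median 0.0491) in the hippocampus. The Barhl2 log2 fold change was 8.67, and 9.27 without female 3. Zic1, a zinc finger gene that mature granule cells keep expressing, had 832 to 888 CPM (median 858) in the cerebellum and 7.96 to 16.5 CPM (median 8.77) in the hippocampus (log2 fold change 6.34 ± 0.17, adjusted p = 4.1e-09). Of 24 Purkinje cell markers, 23 were at least 2-fold higher in the cerebellum and the median was 4.31. Pcp2 had 216 to 270.2 CPM (median 234) in the cerebellum and 0.374 to 0.785 CPM (median 0.525) in the hippocampus (log2 fold change 8.73 ± 0.06, adjusted p = 1.3e-20). Car8, a carbonic anhydrase-related protein that binds the IP3 receptor, had 1257 to 1597 CPM (median 1442) in the cerebellum and 3.39 to 4.84 CPM (median 3.99) in the hippocampus (log2 fold change 8.41 ± 0.09, adjusted p = 3.6e-15). Lhx1, a LIM homeobox gene of Purkinje cells, had 67.5 to 81.3 CPM (median 73.8) in the cerebellum and 0.125 to 0.921 CPM (median 0.373) in the hippocampus (log2 fold change 7.38 ± 0.17, adjusted p = 7.3e-11).

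Cerebellar interneuron and Bergmann glia markers were less uniform: 7 of 12 were at least 2-fold higher in the cerebellum and 2 in the hippocampus, with a median of 1.49. The shares over all tested genes were 11% and 14.3%. Tfap2b, a transcription factor of molecular layer interneurons, had 50.03 to 58.8 CPM (median 54.2) in the cerebellum and 0.124 to 0.425 CPM (median 0.164) in the hippocampus. Slc6a5, the glycine transporter of Golgi cells and of deep nuclear neurons, had 55 to 80.5 CPM (median 74.9) in the cerebellum and 0.217 to 0.621 CPM (median 0.262) in the hippocampus (log2 fold change 7.83 ± 0.09, adjusted p = 1.1e-18). Pax2, a transcription factor of inhibitory interneuron precursors, reached 4.48 ± 0.13 on the log2 scale, and Gdf10, a growth factor gene of Bergmann glia, 3.61 ± 0.04. The 2 in the opposite direction were Grm2, the presynaptic group II glutamate receptor that Golgi cells share with dentate granule cells (-1.51 ± 0.06), and Sorcs3, a sorting receptor (-1.13 ± 0.05).

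Markers of telencephalic and hippocampal neurons showed the mirror image, with the dentate gyrus list the least clear. Of 23 forebrain excitatory neuron markers, 19 were at least 2-fold higher in the hippocampus, beside 14.3% of all tested genes, and none in the cerebellum. The median was -3.91, and the summed level was 2369 to 2497 CPM in the cerebellum and 14872 to 17122 CPM in the hippocampus. Icam5, the dendritic adhesion molecule telencephalin, had 0.15 to 0.686 CPM (median 0.384) in the cerebellum and 206 to 255 CPM (median 228) in the hippocampus (log2 fold change -9.25 ± 0.09, adjusted p = 4.2e-17). Nrgn, the postsynaptic calmodulin-binding protein neurogranin, had 1.47 to 2.26 CPM (median 1.7) in the cerebellum and 647 to 839 CPM (median 705.9) in the hippocampus (log2 fold change -8.68 ± 0.07, adjusted p = 4.1e-19). Lhx2, a patterning gene of the cortex and hippocampus, had a log2 fold change of -7.75 ± 0.12. Slc17a7, the vesicular glutamate transporter VGLUT1, is used by cerebellar granule cells as well as by hippocampal neurons. It had 388 to 423 CPM (median 404) in the cerebellum and 1162 to 1329 CPM (median 1231) in the hippocampus (-1.62 ± 0.02). Among 22 markers of CA pyramidal cells, 1 was at least 2-fold higher in the cerebellum and 18 in the hippocampus, with a median of -2.97. Rgs14, a G protein regulator of CA2, had 0.102 to 0.269 CPM (median 0.131) in the cerebellum and 87.6 to 109.6 CPM (median 95.4) in the hippocampus. Fibcd1, a chitin-binding receptor of CA1, had 0.241 to 0.419 CPM (median 0.291) in the cerebellum and 139 to 156 CPM (median 149) in the hippocampus. The ranges of both genes were far apart, with log2 fold changes of -9.29 ± 0.07 and -8.88 ± 0.05. Mpped1 (-5.64 ± 0.05) and Kcnq5, an M-type potassium channel (-5.18 ± 0.05), followed. The single CA marker higher in the cerebellum was Cacng5, an AMPA receptor auxiliary subunit known in CA2 and also in Bergmann glia (2.14 ± 0.08).

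Of 19 dentate granule cell markers, 4 were at least 2-fold higher in the cerebellum and 12 in the hippocampus, with a median of -1.96. For all tested genes the shares were 11% and 14.3%. C1ql2, a C1q-like protein that mossy fibres secrete, had 0.126 to 0.512 CPM (median 0.305) in the cerebellum and 55.3 to 73.2 CPM (median 62.5) in the hippocampus (log2 fold change -7.71 ± 0.11, adjusted p = 1.8e-16). Lct, the lactase gene, had 0.189 to 0.388 CPM (median 0.315) in the cerebellum and 46.5 to 66.3 CPM (median 59.5) in the hippocampus (log2 fold change -7.55 ± 0.07, adjusted p = 1.2e-19). Dsp, the desmosomal protein desmoplakin, had 0.331 to 3.37 CPM (median 1.85) in the cerebellum and 53.8 to 93.7 CPM (median 75.5) in the hippocampus (log2 fold change -5.42 ± 0.26, adjusted p = 1.7e-07). Its cerebellum values were 0.598, 0.331 and 0.615 CPM in males 1, 3 and 7 and 1.56 to 3.37 CPM in the females and male 5. Males 1, 3 and 7 also had the low choroid plexus sums given below, and a link was not tested. Trpc6, a calcium-permeable cation channel, reached -4.75 ± 0.09. The 4 that went the other way were Il16, a cytokine precursor with a neuronal form (2.27 ± 0.04), Ablim3, an actin-binding protein (1.76 ± 0.04), Plk5, a polo-like kinase (1.61 ± 0.07), and Penk, proenkephalin (1.49 ± 0.04). Il16 had 222 to 258 CPM (median 238) in the cerebellum and 43.9 to 53.9 CPM (median 49.9) in the hippocampus, with no overlap. Of 16 tested markers of adult neurogenesis, 1 was at least 2-fold higher in the cerebellum and 8 in the hippocampus, 2 did not pass, and the median was -1.43. The summed level of the list, without TMM factors, was 248 to 277 CPM in the cerebellum and 274 to 329 CPM in the hippocampus. These ranges overlap only on that scale. The TMM factors were 1.04 to 1.06 in the cerebellum and 0.948 to 0.968 in the hippocampus, and the overlap is lost once they are applied. Insm1, a zinc finger gene of newborn neurons, had 0.102 to 0.509 CPM (median 0.336) in the cerebellum and 4.2 to 6.26 CPM (median 4.66) in the hippocampus. Mki67, a marker of dividing cells, had 0.238 to 1.01 CPM (median 0.406) in the cerebellum and 3.33 to 6.35 CPM (median 4.38) in the hippocampus. Doublecortin, Dcx, of migrating young neurons, had 6.27 to 7.42 CPM (median 6.62) in the cerebellum and 23.7 to 32.5 CPM (median 27.1) in the hippocampus. Log2 fold changes were -3.92 ± 0.18, -3.31 ± 0.14 and -2.03 ± 0.05 for the 3 genes, with adjusted p of 9.8e-12, 5.6e-12 and 1.1e-14. The member higher in the cerebellum, the replication licensing factor Mcm2, sat at the 2-fold limit (1.01 ± 0.05) and fell under it without female 3 or without male 3.

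GABAergic neurons are present in both tissues but of different kinds. Of 22 markers of forebrain and hippocampal interneurons, 3 were at least 2-fold higher in the cerebellum and 12 in the hippocampus, beside 11% and 14.3% of all tested genes. The median of the list was -2.28. Its summed level went the other way, with 2118 to 2283 CPM in the cerebellum and 1276 to 1499 CPM in the hippocampus. Vip, a neuropeptide of disinhibitory interneurons, had 0 to 0.126 CPM (median 0.0149) in the cerebellum and 11.3 to 15.1 CPM (median 13.2) in the hippocampus (log2 fold change -8.40 ± 0.23, adjusted p = 1.7e-13). Without female 3 the Vip log2 fold change was -9.01. Dlx1, a homeobox gene of interneurons from the ganglionic eminences, had 0.0298 to 0.271 CPM (median 0.149) in the cerebellum and 30.1 to 38.4 CPM (median 35.4) in the hippocampus (log2 fold change -7.71 ± 0.11, adjusted p = 1.9e-17). Htr3a, the ionotropic serotonin receptor of another interneuron class, reached -7.21 ± 0.17. Dlx5 had no count in the cerebellum and 2.44 to 3.11 CPM (median 2.57) in the hippocampus, at least 210-fold higher there against 3 counts over the 8 cerebellum libraries. Higher in the cerebellum were Reln, the extracellular guidance protein reelin, which granule cells also make (2.74 ± 0.06), Cnr1, the CB1 cannabinoid receptor of parallel fibres and interneurons (1.17 ± 0.04), and Slc32a1, the vesicular GABA transporter (1.13 ± 0.07). The GABA-synthesising enzymes differed by less than 2-fold. Gad1 had 511 to 563 CPM (median 544) in the cerebellum and 293 to 349.9 CPM (median 335) in the hippocampus (0.72 ± 0.04), with no overlap. Gad2 had 144 to 172 CPM (median 165) in the cerebellum and 131 to 163 CPM (median 145) in the hippocampus, ranges that overlap (log2 fold change 0.14 ± 0.04, adjusted p = 0.0068), and did not pass in the 4 mice without a D code.

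**Figure D3:**
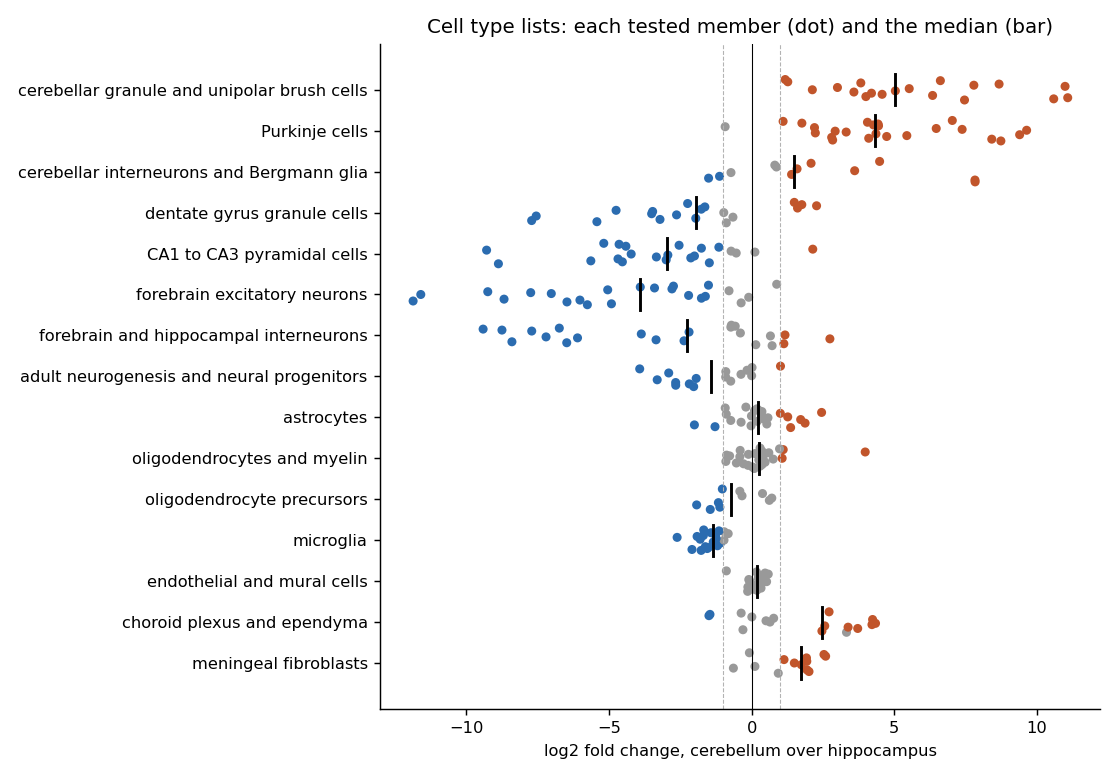
Log2 fold change of cerebellum over hippocampus for each tested member (dot) of 15 cell type lists in 8 wild-type mice, with the median as a bar. Dots are coloured where the gene was called and at least 2-fold higher in the cerebellum (orange) or hippocampus (blue), and dashed lines mark a log2 change of 1 either way: cerebellar granule markers all lie to the right and microglia markers all to the left of 0.

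Transcription factors that pattern the brain kept regional levels in these adult tissues. Of 36 tested genes, 18 were at least 2-fold higher in the cerebellum and 10 in the hippocampus, with a median of 1.46. Such differences were found for 11% and 14.3% of all tested genes. En2, the engrailed gene of the midbrain and hindbrain, had 97 to 115 CPM (median 104) in the cerebellum and 0.49 to 1.12 CPM (median 0.8) in the hippocampus (log2 fold change 6.998 ± 0.07, adjusted p = 9.6e-20). Lhx5 reached 6.47 ± 0.16 in favour of the cerebellum. Emx1, with Emx2 a patterning gene of the dorsal telencephalon, had 0 to 0.136 CPM (median 0.047) in the cerebellum and 4.68 to 7.74 CPM (median 5.51) in the hippocampus (log2 fold change -6.47 ± 0.21, adjusted p = 1.2e-13). Some of these genes, Lhx1 and Prox1 among them, stand in the cell type lists as well. Markers of neighbouring regions bore on the dissection. Of 16 thalamic, brainstem and spinal markers, 9 could be tested, and 5 were higher in the cerebellum and 3 in the hippocampus. The Hox genes Hoxa4, Hoxa5 and Hoxb5, which mark the hindbrain behind the cerebellum, reached at most 0.283 CPM in the cerebellum and 0.0316 CPM in the hippocampus. Glra1, the glycine receptor subunit of hindbrain and spinal neurons, had 1.26 to 7.81 CPM (median 6.67) in the cerebellum and 0 to 0.165 CPM (median 0.115) in the hippocampus (log2 fold change 5.55 ± 0.30, adjusted p = 1.4e-09). Th, tyrosine hydroxylase, whose transcript some Purkinje cells carry, had 7.04 to 9.64 CPM (median 8.32) in the cerebellum and 0.395 to 0.777 CPM (median 0.6253) in the hippocampus (log2 fold change 3.73 ± 0.11, adjusted p = 3.6e-14). Lhx9, a thalamic marker also known in other forebrain regions, went the other way, with 0.752 to 1.382 CPM (median 0.935) in the cerebellum and 16.2 to 20.8 CPM (median 18.8) in the hippocampus. Tph2, of serotonin neurons (-1.31 ± 0.17), and Dbh, of noradrenergic neurons (-4.48 ± 0.45), were higher in the hippocampus as well. The part of neighbouring tissue in these values was not tested.

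The GABA-A receptor is a pentamer built from a choice of subunits, whose transcripts mostly differed in level between the 2 tissues. Transcript levels do not show which subunits were assembled. Of 16 tested subunit genes, 3 were at least 2-fold higher in the cerebellum and 7 in the hippocampus. Over all tested genes the shares were 11% and 14.3%. Gabra6 and Gabrd, which form the extrasynaptic receptors of granule cells, were among the 3. Gabrd had 167 to 206 CPM (median 186) in the cerebellum and 23.7 to 31.6 CPM (median 25.3) in the hippocampus (log2 fold change 2.82 ± 0.07, adjusted p = 2.6e-11). On the other side, Gabra5, the subunit of tonic inhibition in CA1, had 0.819 to 2.95 CPM (median 2.09) in the cerebellum and 197 to 233 CPM (median 212) in the hippocampus (log2 fold change -6.79 ± 0.13, adjusted p = 6.2e-11). Gabrg3 (-3.58 ± 0.05), Gabra2 (-2.15 ± 0.04), Gabra3 (-2.04 ± 0.06) and Gabra4 (-1.94 ± 0.05) were also higher in the hippocampus without overlap. Gabrq, at a median of 0.132 CPM in the cerebellum and 0.845 CPM in the hippocampus, passed with all 8 mice (log2 fold change -2.06 ± 0.73, adjusted p = 0.026) but not without female 3, female 5, female 9 or male 3. The Gabrq log2 fold change was -3.05 without male 1, whose cerebellum library held 1.11 CPM against at most 0.269 in the others. Under 2-fold stood Gabrb2 (0.97 ± 0.06), Gabrg1 (-0.59 ± 0.05), Gabrb1 (-0.74 ± 0.08) and Gabre (-0.75 ± 0.25), which did not pass in DESeq2 or in the 4 mice without a D code. Gabrr2 did not pass (log2 fold change 0.05 ± 0.19, adjusted p = 0.81).

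On the FPKM scale, which allows subunits to be compared with each other, Gabra6 made up 64.1% ± 1.1 of the summed alpha subunit transcripts in the cerebellum and 0.0600% ± 0.042 in the hippocampus (SD, n = 8 each). Gabra5 made up 0.172% ± 0.066 in the cerebellum and 37.5% ± 1.4 in the hippocampus. The alpha subunits summed to 451 ± 20 FPKM in the cerebellum and 204 ± 5.5 FPKM in the hippocampus. Among the beta subunits Gabrb2 made up 61.8% ± 2.0 in the cerebellum and 23.0% ± 1.7 in the hippocampus.

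**Figure D4:**
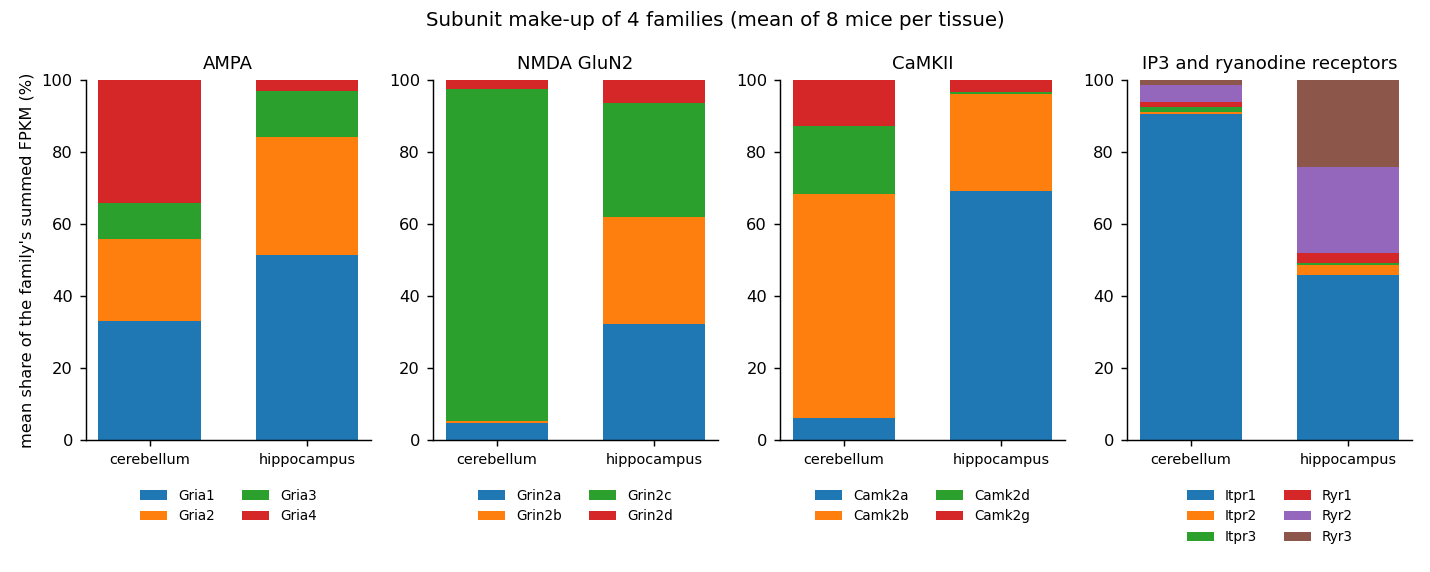
Subunit make-up of 4 gene families as the mean share of the family's summed FPKM, in percent, over 8 wild-type mice per tissue, with the cerebellum bar left of the hippocampus bar. Grin2c and Camk2b take the largest share of their families in the cerebellum, Gria1 and Camk2a in the hippocampus and Itpr1 in both, while the hippocampal shares of Grin2a, Grin2b and Grin2c lie within their spread over mice.

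Glutamate receptors split in a comparable way: of 25 tested genes, 7 were at least 2-fold higher in the cerebellum and 11 in the hippocampus, with a median of -0.55. Shares of all tested genes were 11% and 14.3%. The cerebellar genes were led by Grm4, the presynaptic autoreceptor of parallel fibres, with 339.5 to 409.7 CPM (median 382) in the cerebellum and 5.68 to 10.2 CPM (median 8.36) in the hippocampus (log2 fold change 5.52 ± 0.08, adjusted p = 9.7e-14). Grin2c, the NMDA receptor subunit of mature granule cells, had 359.7 to 450.0 CPM (median 391) in the cerebellum and 45.1 to 54.5 CPM (median 49.1) in the hippocampus (log2 fold change 3.01 ± 0.04, adjusted p = 6.9e-17). Gria4, an AMPA receptor subunit (2.90 ± 0.04), Grin3b (2.30 ± 0.28) and the kainate subunit Grik1 (1.18 ± 0.11) were also among the 7. The hippocampal genes were led by Grm5, a group I metabotropic receptor of forebrain neurons, with 9.18 to 10.9 CPM (median 9.81) in the cerebellum and 280.4 to 321 CPM (median 311) in the hippocampus (log2 fold change -4.95 ± 0.04, adjusted p = 4.6e-20). Grin2b, the NMDA receptor subunit of forebrain synapses, had 2.3 to 5.81 CPM (median 4.77) in the cerebellum and 48.1 to 109 CPM (median 87.3) in the hippocampus (log2 fold change -4.21 ± 0.18, adjusted p = 6.8e-08). Grik4 (-2.01 ± 0.04), Grid1 (-1.65 ± 0.04), Grik5 (-1.65 ± 0.03), Grm2, Grm7 (-1.40 ± 0.04), Grin2a (-1.38 ± 0.15), Gria1 (-1.27 ± 0.02), Gria2 (-1.18 ± 0.03) and Grm3 (-1.05 ± 0.05) followed. Of the others, Gria3 (-0.99 ± 0.03), Grin1 (-0.55 ± 0.02), the obligatory NMDA subunit, and Grin3a (-0.55 ± 0.04) were higher in the hippocampus by less than 2-fold. Grik3 (0.73 ± 0.04) and Grik2 (0.43 ± 0.03) were higher in the cerebellum by less than 2-fold. Grm8 and Grin2d did not pass, with log2 fold changes of 0.05 ± 0.08 and 0.02 ± 0.05. Among the 4 GluN2 subunits, Grin2c made up 92.2% ± 1.3 of FPKM in the cerebellum and 31.6% ± 5.6 in the hippocampus. Grin2b made up 0.633% ± 0.19 in the cerebellum and 29.6% ± 4.7 in the hippocampus, and Grin2a 4.66% ± 0.87 and 32.3% ± 2.4. In CPM, which is not scaled to length, the hippocampus median was higher for Grin2b (87.3) than for Grin2c (49.1). The order of these subunits in the hippocampus thus depends on the scale. Gria4 made up 34.2% ± 0.97 of AMPA subunit FPKM in the cerebellum and 3.22% ± 0.29 in the hippocampus.

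Of 12 auxiliary AMPA receptor subunits, 2 were at least 2-fold higher in the cerebellum and 6 in the hippocampus, beside 11% and 14.3% of all tested genes. Cacng2, stargazin, whose loss gives the ataxic stargazer mouse, had 141 to 159 CPM (median 147) in the cerebellum and 59.7 to 65.9 CPM (median 63.6) in the hippocampus (log2 fold change 1.23 ± 0.03, adjusted p = 5.4e-16). Cacng8, the TARP of CA1, had 3.88 to 4.95 CPM (median 4.35) in the cerebellum and 59.5 to 77.2 CPM (median 64.8) in the hippocampus (log2 fold change -3.91 ± 0.05, adjusted p = 2.1e-18). The cornichon proteins Cnih3 (-4.69 ± 0.07) and Cnih2 (-3.90 ± 0.03) went with Cacng8. In the family of cerebellins, C1q-like proteins and their partners, 3 of 13 tested genes, Cbln3 and Cbln1 among them, were at least 2-fold higher in the cerebellum and 5 in the hippocampus. The 5 were C1ql2, Cbln2 (-4.02 ± 0.36), C1ql3 (-3.21 ± 0.05), Grid1 and Cbln4 (-1.36 ± 0.41). Cbln4 missed the threshold in the 4 mice without a D code (log2 fold change -1.06). C1ql3, which with C1ql2 organises mossy fibre synapses, had 8.47 to 10.4 CPM (median 9.68) in the cerebellum and 77.6 to 94.4 CPM (median 88.3) in the hippocampus. C1ql1, which climbing fibres secrete onto Purkinje cells, did not pass (log2 fold change -0.34 ± 0.26, adjusted p = 0.25). Nrxn2 (0.59 ± 0.04) and Nrxn3 (0.50 ± 0.03), presynaptic neurexins to which cerebellins bind, were higher in the cerebellum by less than 2-fold. Cbln3 and Cbln1 made up 49.9% ± 1.2 and 48.9% ± 1.3 of the summed FPKM of the secreted members in the cerebellum, where that sum was 712.1 ± 56 FPKM. C1ql3 and C1ql2 made up 44.6% ± 2.5 and 40.4% ± 2.7 in the hippocampus, where it was 75.9 ± 3.5 FPKM.

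Ion channels that set firing patterns differed gene by gene. Of 46 voltage-gated potassium channel genes, 8 were at least 2-fold higher in the cerebellum and 22 in the hippocampus, beside 11% and 14.3% of all tested genes. Their summed level, without TMM factors, was 4504 to 4874 CPM in the cerebellum and 4070 to 4275 CPM in the hippocampus. TMM scaling lowers the cerebellum values and raises the hippocampus values. Kcnc1, a fast Kv3 channel that allows rapid repetitive firing, had 717 to 836 CPM (median 768) in the cerebellum and 184 to 203 CPM (median 190.3) in the hippocampus. Its log2 fold change was 2.02 ± 0.03, and that of the silent subunit Kcng4 was 4.27 ± 0.04. In the other direction stood Kcng1 (-7.34 ± 0.11), Kcnip2, a calcium-binding partner of Kv4 channels (-6.73 ± 0.06), and Kcnh3, an ether-a-go-go channel of the forebrain (-6.29 ± 0.08). Kcnip2 had 1.35 to 2.27 CPM (median 2.08) in the cerebellum and 191 to 239.5 CPM (median 210.1) in the hippocampus. Of 28 sodium and calcium channel genes, 6 were at least 2-fold higher in the cerebellum and 10 in the hippocampus, beside the same 11% and 14.3% of all genes. Cacna1a, the P/Q-type calcium channel whose mutations cause ataxia, had 487 to 599.5 CPM (median 555) in the cerebellum and 181 to 208 CPM (median 184) in the hippocampus (log2 fold change 1.55 ± 0.03, adjusted p = 2.0e-16). Its partner Cacna2d2 (2.92 ± 0.05), Scn4b, the sodium channel subunit of resurgent current (2.46 ± 0.08), and the T-type channel Cacna1g (1.90 ± 0.04) were higher in the cerebellum as well. Scn3b, a sodium channel beta subunit (-6.31 ± 0.08), and the T-type channel Cacna1h (-5.58 ± 0.06) were higher in the hippocampus. Thus 2 T-type channels lay on opposite sides.

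Genes of calcium stores and buffers were even as a list, with 11 of 34 genes at least 2-fold higher in each tissue. Among all tested genes, 11% were at least 2-fold higher in the cerebellum and 14.3% in the hippocampus. Itpr1, the IP3 receptor of Purkinje cells, had 3062 to 4261 CPM (median 3681) in the cerebellum and 502 to 559 CPM (median 524) in the hippocampus (log2 fold change 2.80 ± 0.05, adjusted p = 1.1e-13). It made up 90.6% ± 1.2 of the summed FPKM of IP3 and ryanodine receptors in the cerebellum and 45.9% ± 0.98 in the hippocampus. Atp2a3, a calcium pump of the endoplasmic reticulum, had 253 to 308 CPM (median 293) in the cerebellum and 7.85 to 10.96 CPM (median 9.59) in the hippocampus (log2 fold change 4.93 ± 0.06, adjusted p = 7.1e-16). The calcium-binding proteins Pvalb (4.10 ± 0.04), Calb2 (3.83 ± 0.11) and Calb1 (2.84 ± 0.04) were all higher in the cerebellum, as was Itpr3 (3.22 ± 0.05). Hippocalcin and its relative had the opposite pattern. Hpca had 41.8 to 49.8 CPM (median 43.4) in the cerebellum and 1344 to 1595 CPM (median 1475) in the hippocampus (log2 fold change -5.05 ± 0.04, adjusted p = 1.4e-19), and Hpcal4 reached -4.85 ± 0.05. Necab2, an EF-hand protein of CA2, reached -4.87 ± 0.09.

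Of 31 calcium-dependent kinase and phosphatase genes, 7 were at least 2-fold higher in the cerebellum and 12 in the hippocampus, beside 11% and 14.3% of all tested genes. The CaMKII family summed to 315 ± 9.4 FPKM in the cerebellum and 1343 ± 65 FPKM in the hippocampus. Camk2a made up 6.14% ± 0.61 of it in the cerebellum and 69.3% ± 0.88 in the hippocampus, and Camk2b 62.2% ± 0.63 and 26.7% ± 0.66 in the same order. Camk2b, whose product binds actin, was itself higher in the hippocampus, with 692 to 764 CPM (median 723) in the cerebellum and 1320.0 to 1553 CPM (median 1424) in the hippocampus (-0.98 ± 0.03). Camk2d went the other way, with 200.3 to 214 CPM (median 208) in the cerebellum and 30.2 to 48 CPM (median 34) in the hippocampus (log2 fold change 2.50 ± 0.09, adjusted p = 3.0e-09). Camk4, the nuclear CaM kinase of granule cells, had 729.6 to 962 CPM (median 918) in the cerebellum and 137 to 158 CPM (median 152) in the hippocampus (log2 fold change 2.55 ± 0.04, adjusted p = 5.6e-18). Camkv, a CaM kinase-like protein without kinase activity, had 3.22 to 4.37 CPM (median 4) in the cerebellum and 692 to 769.5 CPM (median 736) in the hippocampus (log2 fold change -7.58 ± 0.06, adjusted p = 5.4e-20).

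Of 21 transmitter transporter genes, 7 were at least 2-fold higher in the cerebellum and 8 in the hippocampus, beside 11% and 14.3% of all tested genes. Slc1a6, the glutamate transporter of Purkinje cells, had 126 to 171 CPM (median 146) in the cerebellum and 6.46 to 8.21 CPM (median 6.94) in the hippocampus (log2 fold change 4.36 ± 0.06, adjusted p = 2.6e-15). The 2 astrocytic glutamate transporters took opposite sides. Slc1a2 (GLT-1) had 809.7 to 959.7 CPM (median 913) in the cerebellum and 3553 to 3702 CPM (median 3662) in the hippocampus (log2 fold change -2.01 ± 0.03, adjusted p = 9.1e-18). Slc1a3 (GLAST), the transporter of Bergmann glia, had 1148 to 1285 CPM (median 1220.0) in the cerebellum and 659.9 to 726 CPM (median 698) in the hippocampus (log2 fold change 0.81 ± 0.03, adjusted p = 3.2e-13). Slc1a3 made up 65.0% ± 0.74 of the FPKM of the 4 uptake genes in the cerebellum and 31.0% ± 0.74 in the hippocampus, while Slc1a2 made up 17.5% ± 1.1 and 58.8% ± 0.59. Slc30a3, the zinc transporter of mossy fibre vesicles, had 1.35 to 2.21 CPM (median 1.7) in the cerebellum and 68.6 to 79.2 CPM (median 72.1) in the hippocampus (log2 fold change -5.37 ± 0.07, adjusted p = 1.6e-17).

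Of 40 tested receptors for monoamines, acetylcholine, cannabinoids and opioids, 6 were at least 2-fold higher in the cerebellum (11% of all tested genes) and 25 in the hippocampus (14.3%), with a median of -1.95. Chrm1, the muscarinic M1 receptor, had 0.331 to 0.924 CPM (median 0.529) in the cerebellum and 248 to 283 CPM (median 264) in the hippocampus (log2 fold change -8.83 ± 0.08, adjusted p = 3.2e-18). Htr1a, the serotonin autoreceptor and heteroreceptor, had 0.0301 to 0.481 CPM (median 0.157) in the cerebellum and 26.1 to 41.8 CPM (median 31.6) in the hippocampus (log2 fold change -7.11 ± 0.19, adjusted p = 4.2e-11), and Htr4 reached -7.02 ± 0.09. The genes that led in the cerebellum were low in both tissues. Adra2b, an alpha-2 adrenergic receptor, had medians of 1.18 CPM in the cerebellum and 0.098 CPM in the hippocampus, and the nicotinic subunit Chrnb4 1.62 and 0.187 CPM. Among 20 steroid and hormone receptors, 3 were at least 2-fold higher in the cerebellum, near the share of all tested genes (11%), and 7 in the hippocampus (14.3% of all tested genes). Rora, the orphan receptor whose loss causes the staggerer phenotype of Purkinje cells, had 345 to 436 CPM (median 375) in the cerebellum and 35.8 to 45.2 CPM (median 38.1) in the hippocampus (log2 fold change 3.31 ± 0.06, adjusted p = 1.3e-13). Crhr1, the receptor for corticotropin-releasing hormone, was also higher there (3.04 ± 0.11). The corticosteroid receptors differed from each other. Nr3c2, the mineralocorticoid receptor, had 35.6 to 44 CPM (median 38.6) in the cerebellum and 205 to 272 CPM (median 227) in the hippocampus (log2 fold change -2.53 ± 0.03, adjusted p = 2.4e-19). Nr3c1, the glucocorticoid receptor, had 122 to 139 CPM (median 129) in the cerebellum and 95.4 to 104 CPM (median 100.1) in the hippocampus (0.38 ± 0.03). Of 10 neurotrophin genes, 1, the low-affinity receptor Ngfr (1.81 ± 0.16), was at least 2-fold higher in the cerebellum, a share near that of all genes, and 5 in the hippocampus. Bdnf had 9.25 to 20.2 CPM (median 18.4) in the cerebellum and 46.7 to 59.9 CPM (median 56.1) in the hippocampus (log2 fold change -1.76 ± 0.14, adjusted p = 3.3e-06), and the sorting receptor Sort1 (-1.83 ± 0.02) went with it.

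Immediate early genes, which neurons switch on with activity, divided. Of 24, 3 were at least 2-fold higher in the cerebellum, near the 11% of all tested genes, and 15 in the hippocampus (14.3% of all), with a median of -1.54. Egr3 had 0.0598 to 0.376 CPM (median 0.246) in the cerebellum and 25.3 to 41.6 CPM (median 29.97) in the hippocampus (log2 fold change -7.04 ± 0.12, adjusted p = 4.2e-16). Egr2 had 0 to 0.273 CPM (median 0.135) in the cerebellum and 1.6 to 8.11 CPM (median 5.9) in the hippocampus (log2 fold change -5.31 ± 0.39, adjusted p = 3.9e-07). Arc, a regulator of AMPA receptor endocytosis, had 19.1 to 25.9 CPM (median 22.2) in the cerebellum and 108 to 232 CPM (median 176) in the hippocampus (log2 fold change -2.96 ± 0.18, adjusted p = 9.8e-07). The 3 genes did not overlap between the tissues. Fos went the other way, with 18.5 to 71.7 CPM (median 44.9) in the cerebellum and 8.92 to 23.7 CPM (median 16.8) in the hippocampus, ranges that overlap although Fos was higher in the cerebellum of all 8 mice (log2 fold change 1.54 ± 0.16, adjusted p = 2.4e-05). Dusp1, a MAP kinase phosphatase (1.63 ± 0.07), and Ier2 (1.29 ± 0.11) were higher in the cerebellum as well. The list's sum varied over mice, at 438 to 890 CPM in the cerebellum and 929 to 1381 CPM in the hippocampus.

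Transcripts of non-neuronal cell markers were not at even levels in the 2 tissues, which does not tell cell number from RNA per cell. All 23 microglia markers had a negative log2 fold change and passed the test, which 83.5% of all tested genes passed in either direction. At least 2-fold higher in the hippocampus were 20 of them, beside 14.3% of all tested genes, and the median was -1.35. Their sum was 254 to 289 CPM in the cerebellum and 607 to 736 CPM in the hippocampus. Fcrls, an Fc receptor-like protein of resident microglia, had 2.62 to 4.41 CPM (median 3.96) in the cerebellum and 18.7 to 24.6 CPM (median 22.7) in the hippocampus (log2 fold change -2.61 ± 0.09, adjusted p = 1.5e-12). P2ry12, their purinergic receptor, had 7.33 to 9.38 CPM (median 8.49) in the cerebellum and 32.8 to 38.5 CPM (median 35.6) in the hippocampus (log2 fold change -2.09 ± 0.04, adjusted p = 9.0e-17). Cx3cr1, the fractalkine receptor, had 13.1 to 17.6 CPM (median 14.1) in the cerebellum and 42.9 to 53.2 CPM (median 50.2) in the hippocampus (log2 fold change -1.77 ± 0.05, adjusted p = 1.8e-14). All 3 were separate between the tissues. Of 10 tested markers of oligodendrocyte precursors, none was at least 2-fold higher in the cerebellum and 5 were in the hippocampus (14.3% of all tested genes). Gpr17 reached -1.93 ± 0.08 and Pdgfra, the receptor that defines these cells, -1.45 ± 0.04.

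Of 24 astrocyte markers, 6 were at least 2-fold higher in the cerebellum and 2 in the hippocampus, beside 11% and 14.3% of all tested genes. Their summed level went the other way, with 9202 to 9840 CPM in the cerebellum and 10359 to 11023 CPM in the hippocampus. Etnppl, a phosphoethanolamine lyase, had 78.1 to 96.2 CPM (median 88.3) in the cerebellum and 13.4 to 18.1 CPM (median 15.2) in the hippocampus (log2 fold change 2.45 ± 0.05, adjusted p = 1.3e-15). S100b, a calcium-binding protein (1.87 ± 0.02), and the water channel Aqp4 (1.36 ± 0.04) were higher in the cerebellum too. Gfap, the intermediate filament of astrocytes, had 128 to 175 CPM (median 136) in the cerebellum and 306 to 385 CPM (median 351) in the hippocampus (log2 fold change -1.29 ± 0.07, adjusted p = 3.0e-08). Gja1, connexin 43, had 213 to 239.8 CPM (median 222) in the cerebellum and 217 to 243 CPM (median 226) in the hippocampus and did not pass (log2 fold change -0.02 ± 0.02, adjusted p = 0.37). Of 27 oligodendrocyte and myelin markers, 3 were at least 2-fold higher in the cerebellum, a share like the 11% of all tested genes, and none in the hippocampus, and the median was 0.25. Mbp, myelin basic protein, had 1896 to 2328 CPM (median 2040.0) in the cerebellum and 1551 to 2394 CPM (median 2039) in the hippocampus (log2 fold change 0.09 ± 0.09, adjusted p = 0.34), and did not pass. Klk6, a protease of mature oligodendrocytes, had 12.6 to 15 CPM (median 14.5) in the cerebellum and 0.49 to 1.44 CPM (median 0.854) in the hippocampus (log2 fold change 3.98 ± 0.17, adjusted p = 8.5e-10). Trf, transferrin (1.07 ± 0.09), and Apod (1.10 ± 0.09) were close to the 2-fold limit. None of 20 endothelial and mural cell markers differed by 2-fold in either direction, with a median of 0.18, and 16 passed the test, a share close to the 83.5% of all tested genes.

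Choroid plexus markers depended on the mouse. Of 17 tested genes, 8 were at least 2-fold higher in the cerebellum and 2, the ependymal genes Ccdc153 and Tmem212, in the hippocampus, while 6 did not pass. The hippocampus share was near the 14.3% of all tested genes. On the cerebellum side the share of all tested genes was 11%. The list's sum in the cerebellum was 2041, 1015, 1829 and 2292 CPM in females 3, 5, 7 and 9 and 1659 CPM in male 5, but 59.9, 58.5 and 61.8 CPM in males 1, 3 and 7. In the hippocampus the sums were 71.6, 154, 59.5 and 54.7 CPM in the females and 96.5, 60.9, 161 and 104 CPM in males 1, 3, 5 and 7. So 5 of 8 cerebellum libraries lay above every hippocampus library and the other 3 within their range. Ttr, transthyretin, the most abundant choroid plexus transcript, had 12.3 to 1930.0 CPM (median 1119) in the cerebellum and 7.9 to 107 CPM (median 25) in the hippocampus, and did not pass (log2 fold change 3.32 ± 1.62, adjusted p = 0.091). Without male 7 the Ttr log2 fold change was 4.03 and passed. The 3 low libraries are among the 4 with a D code in their names, and the other one, from female 9, had the highest sum. In the 4 mice without that code the Ttr log2 fold change was 4.90 and passed, and 13 of the choroid plexus genes were at least 2-fold higher in the cerebellum. Otx2, a homeobox gene of choroid plexus that is also known from developing granule cells, had 12.8 to 19.6 CPM (median 16.7) in the cerebellum and 0.249 to 1.8 CPM (median 0.927) in the hippocampus, with no overlap (log2 fold change 4.21 ± 0.29, adjusted p = 1.2e-06). Slc4a5, a bicarbonate transporter, had 1.6 to 24.1 CPM (median 13) in the cerebellum and 0.165 to 0.994 CPM (median 0.386) in the hippocampus (log2 fold change 4.34 ± 0.57, adjusted p = 1.6e-04). Meningeal fibroblast markers were higher in the cerebellum for 9 of 13 genes by at least 2-fold, with sums of 879 to 1332 CPM in the cerebellum and 228 to 370 CPM in the hippocampus. Slc13a4 (2.59 ± 0.15), the proteoglycan Fmod (2.53 ± 0.09) and the collagen gene Col1a2 (2.01 ± 0.07) led them, and Ptgds is on this list. The part of choroid plexus and meninges left on the dissected piece was not tested for other genes.

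**Figure D5:**
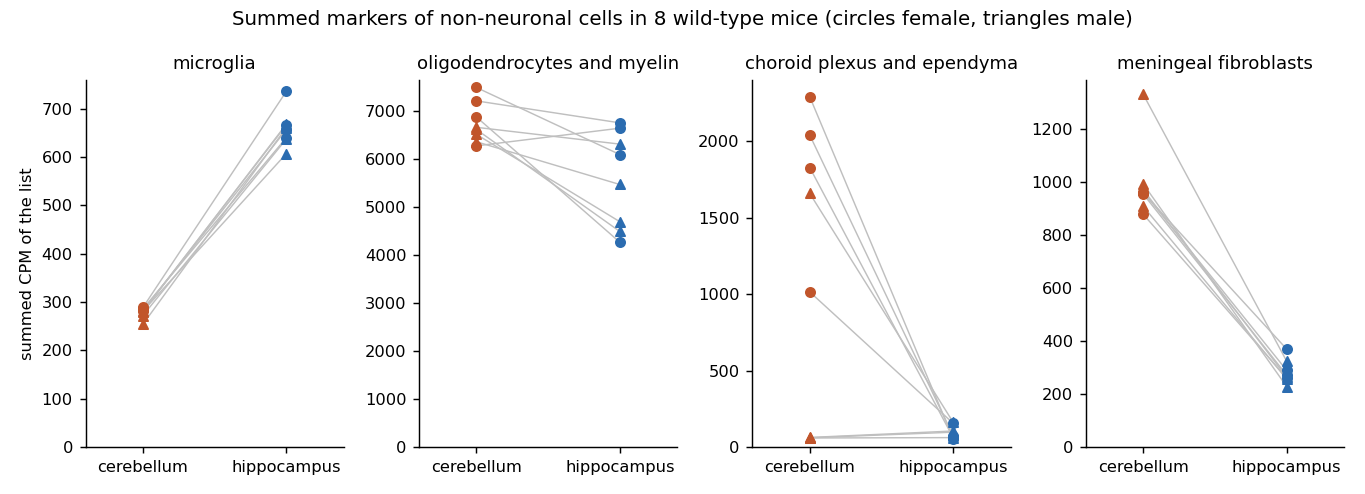
Summed CPM of 4 marker lists in 8 wild-type mice, with the cerebellum on the left and the hippocampus on the right of each panel, 1 point per mouse (circles female, triangles male) and a line joining the tissues of a mouse. Microglia sums are lower in the cerebellum of every mouse, oligodendrocyte sums overlap, and choroid plexus sums fall into 5 high and 3 low cerebellum libraries.

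The gene mutated in Huntington disease and the mismatch repair genes, which are known to affect the instability of its CAG repeat, are 13 genes, of which 2 differed by at least 2-fold, both higher in the cerebellum, a share near the 11% of all tested genes. Htt had 233 to 292 CPM (median 284) in the cerebellum and 217 to 265 CPM (median 245) in the hippocampus, ranges that overlap (log2 fold change 0.20 ± 0.04, adjusted p = 1.9e-04). The lowest cerebellum value was that of male 1, and the other 7 lay between 277 and 292 CPM. The 2 genes were the mismatch repair gene Pms1 (1.16 ± 0.07) and the DNA ligase Lig1 (1.08 ± 0.05).

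The tissue contrast was next compared between the sexes and between genotypes. No gene passed an adjusted p of 0.05 for a difference between males and females in the log2 fold change of cerebellum over hippocampus in edgeR. Unadjusted p was under 0.05 for 725 genes, and the smallest adjusted p was 0.11, for H2-D1, a class I histocompatibility gene (male minus female 0.39 on the log2 scale). Ptgds came second, with a difference of 0.47 and an adjusted p of 0.21. DESeq2 called 16 genes, and without male 5 edgeR called 20. The Q175 mice are heterozygous for an expanded Htt allele and were of the same age. Their animal codes begin differently from those of the wild-type mice, so genotype cannot be told apart from whatever the prefixes mark. Unlike in the wild-type mice, some of their hippocampus library names carried a D code. In the Q175 mice, 1828 of 16372 tested genes (11.2%) were at least 2-fold higher in the cerebellum and 2425 (14.8%) in the hippocampus. Of these, 1547 were shared with the wild-type mice in the cerebellum, which is 84.6% of the Q175 and 85.6% of the wild-type genes. In the hippocampus 2112 were shared, 87.1% of the Q175 and 90.0% of the wild-type genes. No gene was called at 2-fold in opposite directions, and of 4041 wild-type 2-fold genes tested in the Q175 mice 4 had the opposite sign. The 2 genotypes share no library.

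Across the 11 tissues of the wild-type mice, 850 of the 1807 genes at least 2-fold higher in the cerebellum (47.04%) had their highest mean FPKM there, and 862 of the 2346 hippocampus genes (36.7%) in the hippocampus. Among the 5 brain tissues the counts were 1392 (77.0%) and 1226 (52.3%). Both sets were chosen for being high in these tissues in the same libraries, which favours that outcome. The shares over all tested genes are not given here. Cbln1 had 348 FPKM in the cerebellum, 50.1 in hypothalamus/thalamus and 26.8 in brainstem, against 1.75 in the hippocampus. Camk2a had 19.3 FPKM in the cerebellum, 242 in corpus callosum, 149 in gastrocnemius muscle, 124 in hypothalamus/thalamus and 36.4 in brainstem, against 930 in the hippocampus. Crym had 0.0656 FPKM in the cerebellum and 83.5 FPKM in skin, against 134 FPKM in the hippocampus. Krt2 was listed at 0 in the cerebellum and had 2.23 FPKM in skin, against 3.09 FPKM in the hippocampus.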

How the data were processed

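RNA from tissue pieces of 11 tissues was sequenced per mouse, and 16 libraries enter here, 1 cerebellum and 1 hippocampus library from each of 8 wild-type mice. The authors deposited estimated counts per gene, of which 32.0% of values above 0 are not whole, and these were rounded to whole numbers. The authors also deposited FPKM values, used only to compare levels between genes and as an alternative scale. The submitters' processing notes name CASAVA 1.8.2. How reads were aligned and counted, on which build and whether by strand is not stated here by any label or header. Columns with no matching sample label, 72 of counts and 88 of FPKM, were not used.

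Genes were kept by edgeR's filter on low counts (16451 of 38561) and tested with edgeR 4.0.16 in R 4.3.3 by the quasi-likelihood test, with the mouse as a block, TMM scaling and Benjamini-Hochberg adjustment at 0.05. The pairing comes from the animal code. Within-mouse deviations of the 2 tissues correlated at 0.465 to 0.634 over 10856 genes, and at -0.03 to 0.38 after removing sex means. Before that step the cerebellum of females 3 and 9 correlated best with the hippocampus of female 5. After it, only female 7 and males 3, 5 and 7 had their own hippocampus as best match. So these values do not settle the pairing. The sex difference is an interaction term. DESeq2 1.42.0 and limma 3.58.1 gave alternatives. On simulated data for the wild-type tissue comparison, 86 of 100 genes changed 1.5-fold and 99 of 100 changed 2-fold were recovered. There were 17 false calls among 16320 genes. For the sex difference, 169 of 200 genes changed 2-fold in 1 sex were recovered among 16315 genes, with 12 false calls. Each simulation drew counts from the fitted model, with no mouse effect and 200 changed genes. The changed genes were taken only from those above a minimum mean count, so recovery does not cover tested genes at low counts. In the data 83.5% of tested genes were called between the tissues, so the simulated rates may not hold there.

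Text genes were, in each direction, the 10 with the largest fold among called genes with an established symbol, a mean of at least 5 CPM in the higher tissue and 1 direction in 8 of 8 mice, the 10 with the largest FPKM difference, and up to 5 per list, besides 4 marker genes, members of 3 receptor and cerebellin families and the genes with the smallest p for sex. A further 13 genes, among them Gad1, Gja1, Htt, Mbp, Slc1a3, Slc17a7, Ttr and Zic1, were chosen after their values were seen. The members and the lists were chosen with earlier results of these data known. Promoter stretches are from RefSeq on GRCm38.p6. Some genes that the rule names are not reported here. Intervals and floors cover counting error only.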

Additional observations from a re-analysis of the deposited data

Results flagged for a closer look

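Among 448 groups of 8 libraries (a gene or a list sum in 1 tissue), 32 held 1 library that Dixon's test at the 95% level set apart from the other 7; chance gives about 1 in 20 groups. Of the 32, 12 lay in the cerebellum library of male 1. In that library Ptgds stood at 984 CPM, against 567 to 704.7 CPM in the other 7. Pcp2 was at 270 CPM there, with 216 to 239 CPM elsewhere. The Cpe level was 781 CPM, beside 680 to 726 CPM in the rest. In that library Rgs14 stood at 0.269 CPM, against 0.102 to 0.179 CPM in the other 7. Reln was at 415 CPM there, with 468 to 504 CPM elsewhere. The Gabrq level was 1.11 CPM, beside 0 to 0.269 CPM in the rest. In that library Grin2a stood at 11.6 CPM, against 19.3 to 24.2 CPM in the other 7. Itpr3 was at 44.8 CPM there, with 52.7 to 55.8 CPM elsewhere. The Col1a2 level was 34.7 CPM, beside 26 to 30 CPM in the rest. In that library Htt stood at 233 CPM, against 277 to 292 CPM in the other 7. The sum of the meningeal fibroblast list was at 1332 CPM there, with 879 to 994 CPM elsewhere. The sum of the Huntington disease and mismatch repair list was 465 CPM, beside 520 to 538 CPM in the rest.

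The other 20 were spread over 11 libraries. Sycp1 was at 0.0658 CPM in the hippocampus of female 3, against no count in the other mice. In the hippocampus of male 1, Skor2 reached 0.033 CPM, with no count in the rest. Kcnv1 was at 0.12 CPM in the cerebellum of female 5, against 0.0298 to 0.0602 CPM in the other mice. In the hippocampus of female 7, Ckb reached 741 CPM, with 582 to 651 CPM in the rest. The hippocampus library of female 3 held 85.8 CPM of Pcp4, beside 68.7 to 76.5 CPM elsewhere. Barhl2 was at 0.296 CPM in the hippocampus of female 3, against 0 to 0.128 CPM in the other mice. In the hippocampus of female 5, Slc6a5 reached 0.621 CPM, with 0.217 to 0.33 CPM in the rest. The cerebellum library of male 7 held 87.6 CPM of Plk5, beside 70.6 to 78.3 CPM elsewhere. Insm1 was at 6.26 CPM in the hippocampus of male 3, against 4.2 to 4.96 CPM in the other mice. In the cerebellum of female 3, Mki67 reached 1.01 CPM, with 0.238 to 0.477 CPM in the rest. The cerebellum library of male 5 held 19.5 CPM of Grik4, beside 16.4 to 17.3 CPM elsewhere. Kcng4 was at 155 CPM in the cerebellum of male 7, against 124 to 138 CPM in the other mice. In the cerebellum of female 5, Htr4 stood at 0.0601 CPM, with 0.136 to 0.179 CPM in the rest. The hippocampus library of male 7 held 0.608 CPM of Chrnb4, beside 0.098 to 0.231 CPM elsewhere. In the hippocampus of male 7, Nr3c2 reached 272 CPM, with 205 to 235 CPM in the rest. The hippocampus library of male 3 held 46.7 CPM of Bdnf, beside 53.8 to 59.9 CPM elsewhere. Trf was at 526 CPM in the cerebellum of female 7, against 422 to 462 CPM in the other mice. In the hippocampus of female 5, Slc13a4 reached 6.51 CPM, with 2.24 to 4.09 CPM in the rest. The hippocampus library of female 5 held 9.81 CPM of Col1a2, beside 6.08 to 7.67 CPM elsewhere. The sum of the voltage-gated potassium channel list was at 4874 CPM in the cerebellum of male 7, against 4504 to 4674 CPM in the other mice. What sets these libraries apart was not tested.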

How the results depend on the processing

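Of the 192 genes named by rule or by choice, all kept direction and side of the threshold with RLE size factors and with no filter on low counts. DESeq2 called 13162 genes (1802 and 2391 at least 2-fold higher in the cerebellum and the hippocampus), against 13736 (1807 and 2346) in edgeR with TMM scaling. With no replicate block, edgeR called 13542 genes (1809 and 2343), so the pairing by mouse changed few calls, and of the 192 genes Ttr alone was gained. Tested against a 2-fold difference, 3453 genes passed, which by construction asks for a larger effect. On log2(FPKM + 1), 1207 genes were at least 2-fold higher in the cerebellum and 1133 in the hippocampus, and on log2(FPKM + 0.1) the counts were 1887 and 1756, so that the excess on the hippocampus side turned round on both. The median log2 fold change over all genes was 0.13 and 0.16 on these scales; the cause was not tested. Leaving out each mouse in turn gave 13466 to 13633 called genes. For the difference between the sexes, 1 gene (H2-D1) passed with no filter on low counts, 16 in DESeq2, and 0 to 20 on leaving out each mouse in turn, with 20 without male 5 and 1 without female 5, female 7 or female 9; the cause was not tested.

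Directions reversed for 3 genes with small differences. The Gabrr2 log2 fold change was -0.007 without female 3, -0.016 without male 1 and -0.113 without male 5. The Gja1 log2 fold change was 0.114 on log2(FPKM + 1) and 0.115 on log2(FPKM + 0.1). The Grm8 log2 fold change was -0.059 in the 4 mice with one form of library name and -0.011 without male 1. The cause was not tested.

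With 8 mice, sex and the prefix of the animal code cannot be separated. In the form of their names, 4 of 8 cerebellum libraries differ from all hippocampus libraries. Whole tissue pieces do not resolve cells, so a difference can lie in cell number or in RNA per cell. Genes near 0 in 1 tissue have folds limited by depth, and genes that overlap, are antisense or have near-identical copies have uncertain counts.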

Other observations

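Transcripts of 1 tissue appeared at trace level in libraries of the other. In the hippocampus, Gabra6 had 0 to 22 counts per library, Fat2 3 to 41, Cbln3 14 to 51 and Cnpy1 3 to 29, with the highest count of each in male 7. For Ppp1r17 (6 to 13 counts) it lay in female 5, and for Nrk (0 to 3) in both female 9 and male 1. In the cerebellum, Ddn had 7 to 47 counts, Cpne7 4 to 28 and Crym 0 to 6, with the highest count in male 1 for Cpne7 and in both male 1 and male 5 for Ddn and Crym. For Kcnv1 (1 to 4) it lay in female 5.

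A few genes differed between mice within the cerebellum. Glra1 was at 1.35 CPM in female 3, 1.496 CPM in male 1 and 1.26 CPM in male 3, and at 6.07 to 7.81 CPM in the other 5 mice. Cbln4, in the same 3 mice, was at 0.945, 1.44 and 0.512 CPM, and at 4.51 to 6.01 CPM in the others. C1ql1 was at 1.73, 2.54 and 2.38 CPM in them and at 5.97 to 6.76 CPM in the others. The glycine transporter gene Slc6a5 was at 61.8, 55.0 and 58.0 CPM in them and at 74.5 to 80.5 CPM in the others. These are values per mouse with no test.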
